A study of Mus musculus with 6 samples.

Results

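MHC class II presentation was described here through 10 genes, taken by symbol from the 35237 genes of the Cufflinks table and from the 36536 entries of the ALEXA-Seq table, and all 10 were found in both. They were H2-Aa, H2-Ab1 and H2-Eb1 (the classical class II chains), Cd74 (the invariant chain), H2-DMa, H2-DMb1 and H2-DMb2 (the chains of the peptide exchange factor H2-DM), Ciita (the class II transactivator) and the costimulatory ligands Cd80 and Cd86. The rule that took them used their symbols and no measured value, but the list of symbols was drawn up with earlier results of these data known.

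The libraries came from C57BL/6 mice 6 weeks old, for which the labels name no treatment, with 3 libraries of bone marrow monocytes (BMDM, sorted as CD11b+ CD45high CD115+ Ly6G-) and 3 of brainstem microglia (BSM, brain in the labels, sorted as CD11b+ CD45low CD115low Ly6G-). Each library held the pooled cells of a set of mice, so that variation between single mice was not measured. By the sample records replicate 1 came from males and replicates 2 and 3 from females in each group, whereas the main text of the study describes male mice only. Total RNA was amplified before paired-end sequencing, and values were deposited as FPKM (fragments per kilobase of transcript, scaled by the mapped fragments of the library) and as ALEXA-Seq gene values, which were made from the same libraries and are not independent of the FPKM.

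MHC class II molecules present peptides from endosomes and lysosomes to CD4+ T cells. The alpha and beta chains assemble with the invariant chain, lysosomal proteases cut that chain down to a peptide in the groove, and H2-DM exchanges it for antigenic peptide. Transcription of the chains, of Cd74 and of H2-DM depends on Ciita, which is recruited by factors bound to the X and Y boxes of their promoters. Cd80 and Cd86 bind CD28 and CTLA4 on the T cell and are not part of this promoter module. Microglia of the healthy brain are known for little surface class II.

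To show the promoter module that these genes are known for, windows from 250 bases before to 50 bases after each start were searched on both strands for an X1 core (AACNGATG), an X2 box (TGACGTCA) and a Y box (GATTGG), letters that were chosen after the windows had been seen. RefSeq windows on GRCm38.p6 were present for 6 of the 10 members, and no window was used for H2-Ab1, Cd74, Ciita and Cd86. The stretches that held an X motif followed by a Y box are printed 5′ to 3′ on the strand of the gene, with the matched letters in capitals. H2-DMb2 is at chr17:34145116-34145175 (plus strand), H2-DMb1 at chr17:34153087-34153146 (plus strand), H2-Aa at chr17:34287855-34287909 (minus strand) and H2-Eb1 at chr17:34305766-34305824 (plus strand).
H2-DMb2: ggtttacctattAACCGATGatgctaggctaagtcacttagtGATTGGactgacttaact
H2-DMb1: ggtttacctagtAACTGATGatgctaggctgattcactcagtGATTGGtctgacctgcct
H2-Eb1: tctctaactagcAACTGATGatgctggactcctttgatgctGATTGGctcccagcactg
H2-Aa: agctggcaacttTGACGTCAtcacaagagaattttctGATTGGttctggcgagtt

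The X1 core and the Y box lay 22 bases apart in both H2-DMb genes and 21 bases apart in H2-Eb1. Among all 32851 promoter windows of the table the X1 core was found in 2.32%, the X2 box in 1.79% and the Y box in 16.11%, whereas an X1 core followed by a Y box 10 to 25 bases downstream was found in 6 windows (0.01826%), those of H2-DMb1, H2-DMb2, H2-Eb1, H2-Eb2, H2-M10.4 and BC051142. None of the 3 motifs was found in the Cd80 window or in the first of the H2-DMa windows, and the second H2-DMa window held a Y box alone. A match describes these letters only. Of the members with an X1 core and a Y box, H2-Eb1 was at most 0.0631 FPKM in BSM. H2-DMb1 was 0.228 to 2.71 FPKM there and H2-DMb2 was 0.467 to 0.816 FPKM.

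The sorted populations carried the markers of their labels. The 5 monocyte markers (Ccr2, Ly6c2, Clec12a, Lyz2, S100a4) summed to 1384 to 2847 FPKM in BMDM and 4.69 to 6.94 in BSM, and the 6 microglia markers (P2ry12, Tmem119, Sall1, Cx3cr1, Olfml3, Gpr34) to 6.97 to 8.19 in BMDM and 360 to 423 in BSM. The libraries differed in total, as FPKM summed to 163199 to 194184 in BMDM and 68288 to 75021 in BSM, and the median log2 fold change of the 6364 tested genes was 0.81 toward BMDM. BSM replicate 1 stood apart, with 472 of the tested genes listed at 0 against 51 to 115 in the other libraries, and its RNA had the lowest concentration and integrity in the sample quality sheet. BMDM replicate 2 had the fewest sorted cells and the lowest share of mapped reads of all libraries. Its RNA concentration was the lowest in BMDM, and its FPKM sum was the highest (194184). In these bulk samples fewer cells expressing a gene and less RNA per cell cannot be told apart.

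The comparison asked which steps of class II presentation differed between bone marrow monocytes and resident microglia. The classical chains H2-Aa and H2-Ab1 and the invariant chain were called higher in BMDM, Cd86 was called higher in BSM, and H2-DMa and H2-DMb1 did not pass the test. H2-Eb1, H2-DMb2, Ciita and Cd80 were too low for it. Fold changes are on the log2(FPKM + 1) scale, with positive values higher in BMDM, and understate the change of low genes. limma was run over every gene that reached 3 FPKM in any library, and a gene was called at a Benjamini-Hochberg adjusted p under 0.05. Of the 6 members that reached this minimum, 3 were called higher in BMDM, 1 higher in BSM and 2 were not called. Over all 6364 tested genes 45.3% were called higher in BMDM and 9.22% higher in BSM.

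**Figure D1:**
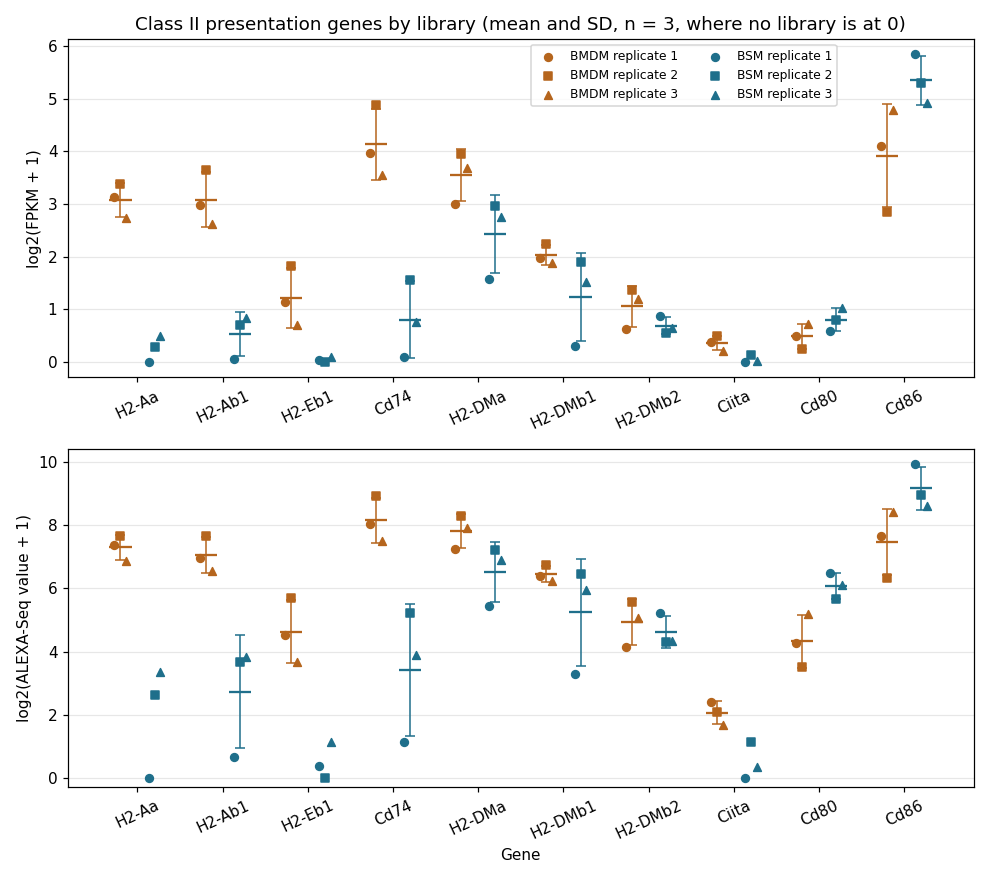
Values of the 10 genes in each library, on the log2(FPKM + 1) scale above and the log2(ALEXA-Seq value + 1) scale below, for 3 BMDM (brown) and 3 BSM (blue) libraries, with the mean and SD drawn where no library is at 0. H2-Aa, H2-Ab1, H2-Eb1 and Cd74 separate the groups with BMDM above, the H2-DM chains lie closer together, and Cd86 is above in BSM.

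H2-Aa, the class II alpha chain (chr17:34419700-34424745 in mm9), was measured at 7.77, 9.41 and 5.63 FPKM in BMDM replicates 1, 2 and 3 and was listed at 0, 0.221 and 0.401 FPKM in BSM. Every BMDM library was above every BSM library. The log2 fold change was 2.82 (SE 0.28, limma adjusted p = 0.000157).

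The H2-Ab1 gene, which encodes the beta chain that pairs with H2-Aa (chr17:34400185-34406355), was measured at 6.87, 11.5 and 5.18 FPKM in BMDM and at 0.0420, 0.625 and 0.785 FPKM in BSM. The means were 7.86 ± 3.29 and 0.484 ± 0.391 FPKM (SD, n = 3 each), a ratio of 16.2. The groups did not overlap, and the log2 fold change was 2.55 (SE 0.35, limma adjusted p = 0.000770).

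H2-Eb1, the beta chain of the second class II isotype (chr17:34442843-34453144), was low in both populations. It was measured at 1.19, 2.52 and 0.617 FPKM in BMDM and listed at 0.0187, 0 and 0.0631 FPKM in BSM. The groups did not overlap, but no library reached the minimum of 3 FPKM, so the gene was not tested there. With a minimum of 1 FPKM, at which 37.2% of 9637 genes were called higher in BMDM and 7.66% higher in BSM, its log2 fold change was 1.17 (SE 0.30, limma adjusted p = 0.0153), and with no minimum the adjusted p was 0.0527. An antisense gene, Gm20513, overlaps it, and it was not stated that counting used strand. H2-Ea, the partner alpha chain, of which C57BL/6 mice are known to carry a nonfunctional allele, was listed at 0 FPKM in every library. By ALEXA-Seq it was above 0 only in BSM replicate 2 (0.269).

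Cd74, the invariant chain (chr18:60963502-60972300), had the highest BMDM mean of the members. Its FPKM was 14.7, 28.5 and 10.8 in BMDM and 0.0641, 1.95 and 0.686 in BSM. The means were 18.0 ± 9.32 and 0.900 ± 0.961 (SD, n = 3 each), a ratio of 20.0. No BSM library reached a BMDM library, and the log2 fold change was 3.33 (SE 0.46, limma adjusted p = 0.000798).

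Within BMDM the 3 called class II genes had the same order among libraries, with replicate 2 highest and replicate 3 lowest for each. H2-Ab1 was 0.469, 0.404 and 0.480 of the FPKM of Cd74 in BMDM replicates 1, 2 and 3. H2-Aa was 0.530, 0.330 and 0.522 of it. In BSM the same ratios were scattered, from 0.321 to 1.14 for H2-Ab1 and from 0 to 0.584 for H2-Aa, at levels under 2 FPKM.

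H2-DMa (chr17:34272594-34276027), the alpha chain of the exchange factor, was the class II gene with the highest BSM level among the members. It was measured at 7.03, 14.6 and 11.8 FPKM in BMDM and at 1.99, 6.77 and 5.73 FPKM in BSM. The lowest BMDM library was just above the highest BSM library, and the log2 fold change of 1.12 (SE 0.42) did not pass (limma adjusted p = 0.0534). It passed with library weights (0.69, limma adjusted p = 0.0105) and without BSM replicate 2 (1.38, 0.0381), and was 0.70 without BSM replicate 1 (0.0854). H2-DMa overlaps Brd2 on the opposite strand in the GENCODE M21 annotation, so reads of Brd2 may be included where counting ignored strand.

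The beta chains H2-DMb1 (chr17:34290136-34297174) and H2-DMb2 (chr17:34282216-34288494) are near copies, with 76.9% of the H2-DMb1 transcript at least 95% identical to H2-DMb2, and the split of reads between them is uncertain. H2-DMb1 was measured at 2.94, 3.72 and 2.67 FPKM in BMDM and 0.228, 2.71 and 1.86 FPKM in BSM. The groups overlapped, and the log2 fold change of 0.80 (SE 0.42) did not pass (limma adjusted p = 0.140). Without BSM replicate 1 it was 0.33. H2-DMb2 was measured at 0.537, 1.57 and 1.28 FPKM in BMDM and 0.816, 0.467 and 0.553 FPKM in BSM, which also overlapped, and it was tested only with the lower minimum (0.37, SE 0.26, limma adjusted p = 0.272). In BSM replicate 1 H2-DMb2 was 3.59 times H2-DMb1, and in the other 5 libraries 0.173 to 0.479 times. The H2-DMb2 transcript also holds stretches at least 95% identical to other genes, among them Tbk1 and Tnfrsf14. The sum of both over H2-DMa does not depend on the split between them, but may include reads of such genes and of Brd2. This ratio was 0.334 to 0.494 in BMDM and 0.421 to 0.525 in BSM by FPKM, which overlapped. By ALEXA-Seq it was 0.447 to 0.653 in BMDM and 0.679 to 1.05 in BSM, with BSM above in every library (two-sided exact permutation p = 0.1, the smallest that 3 against 3 libraries allow).

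Because the FPKM totals differed between the groups, the test was repeated with other scalings of the libraries. Quantile normalization moved the median over tested genes to 0.02, with 21.7% called higher in BMDM and 19.3% in BSM. Scaling to the same sum moved it to -0.23, with 15.2% and 24.9%. H2-Aa, H2-Ab1 and Cd74 were called higher in BMDM under both, with log2 fold changes from 1.75 for H2-Ab1 to 2.52 for Cd74 under quantile normalization. H2-DMa was 0.30 and -0.01 and H2-DMb1 was -0.11 and -0.03 under quantile normalization and the same sum, none of which passed, so that no direction can be given for either gene.

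**Figure D2:**
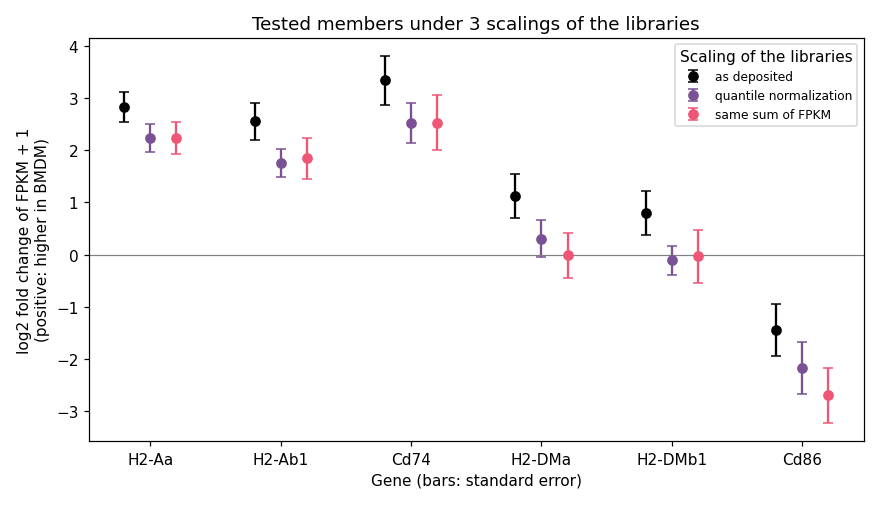
Log2 fold change of FPKM + 1 (positive, higher in BMDM) with its standard error for the 6 tested members, as deposited and after 2 other scalings of the libraries. H2-Aa, H2-Ab1 and Cd74 stay above 1.7 under each scaling, H2-DMa and H2-DMb1 move to about 0, and Cd86 moves from -1.44 to -2.69.

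A ratio of genes within one library does not depend on scaling that library by a constant, as the same sum does, though quantile normalization can change it. The summed FPKM of H2-Aa, H2-Ab1, H2-Eb1 and Cd74 was 2.90, 2.62 and 1.41 times the sum of the H2-DM chains in BMDM and 0.0411, 0.281 and 0.238 times in BSM. The summed FPKM of these chains with Cd74 was thus above that of the H2-DM chains in each BMDM library and below it in each BSM library. The means of this ratio were 2.31 ± 0.793 and 0.187 ± 0.128 (SD, n = 3 each), and the two-sided exact permutation p was 0.1, the smallest that 3 against 3 libraries allow. Cd74 over H2-DMa was 0.911 to 2.08 in BMDM and 0.0322 to 0.288 in BSM. The single chains did not all exceed H2-DM, as H2-DMa (14.6 and 11.8 FPKM) was above both H2-Aa and H2-Ab1 in BMDM replicates 2 and 3. The ALEXA-Seq values gave 2.28, 2.01 and 1.16 in BMDM and 0.0235, 0.211 and 0.188 in BSM for the summed ratio.

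**Figure D3:**
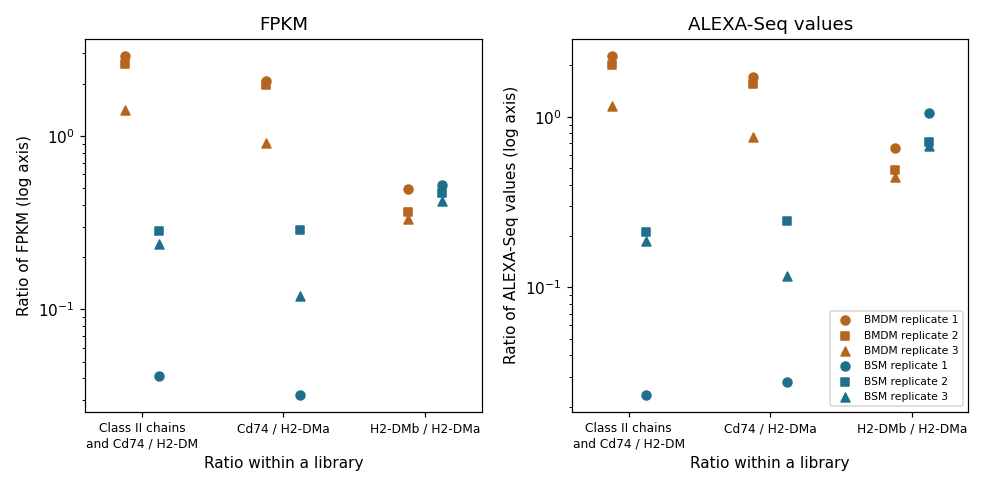
Ratios within each library on a log axis, from FPKM on the left and from ALEXA-Seq values on the right, for the class II chains and Cd74 over the H2-DM chains, for Cd74 over H2-DMa, and for the H2-DMb genes over H2-DMa. The first and second ratios are at least 0.911 by FPKM in every BMDM library and at most 0.288 in every BSM library, while the third lies between 0.334 and 0.525 in all 6 by FPKM and between 0.447 and 1.05 by ALEXA-Seq.

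Ciita, which drives transcription of the class II genes (chr16:10480237-10527657), was the lowest member in BMDM. It was measured at 0.289, 0.395 and 0.158 FPKM in BMDM and listed at 0, 0.0894 and 0.0145 FPKM in BSM. The groups did not overlap, but the gene entered the fit only when no minimum was set, where its log2 fold change was 0.30 (SE 0.08, limma adjusted p = 0.0485). By ALEXA-Seq with no minimum it was 1.57 (SE 0.50) and did not pass (limma adjusted p = 0.0931). Dexi overlaps Ciita on the opposite strand.

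Cd86, a ligand of CD28 and CTLA4 (chr16:36603955-36666167), was the one member called higher in BSM by FPKM. It was measured at 16.1, 6.24 and 26.8 FPKM in BMDM and at 56.7, 38.3 and 29.4 FPKM in BSM. The means were 16.4 ± 10.3 and 41.5 ± 13.9 (SD, n = 3 each), a ratio of 2.53 toward BSM. The highest BMDM library came close to the lowest BSM library without reaching it, and the log2 fold change was -1.44 (SE 0.49, limma adjusted p = 0.0382). The call was lost without BMDM replicate 1 (adjusted p = 0.0853), BMDM replicate 2 (0.0903, log2 fold change -0.91), BSM replicate 1 (0.0943) or BSM replicate 2 (0.0650), and it held under both other scalings.

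Cd80, the other ligand of CD28 and CTLA4 (chr16:38459013-38487015), was measured at 0.400, 0.189 and 0.638 FPKM in BMDM and 0.509, 0.724 and 1.04 FPKM in BSM. These ranges overlapped, and with the lower minimum the log2 fold change of -0.32 (SE 0.23) did not pass (limma adjusted p = 0.288). The ALEXA-Seq values of Cd80 did not overlap, at 18.5, 10.3 and 35.5 in BMDM and 89.1, 50.0 and 67.8 in BSM. Their log2 fold change was -1.76 (SE 0.50, limma adjusted p = 0.0254). This call was lost with no minimum (limma adjusted p = 0.0570) and without BMDM replicate 1, BMDM replicate 2 or BSM replicate 3. The tables therefore differed in whether Cd80 was called, and the cause was not tested. By FPKM Cd86 was 28.3 to 111 times Cd80, with overlapping ranges between the groups. By ALEXA-Seq it was 5.73 to 10.98 times Cd80, and the ranges of the groups overlapped there as well. The size of this ratio thus depended on which values were used.

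**Figure D4:**
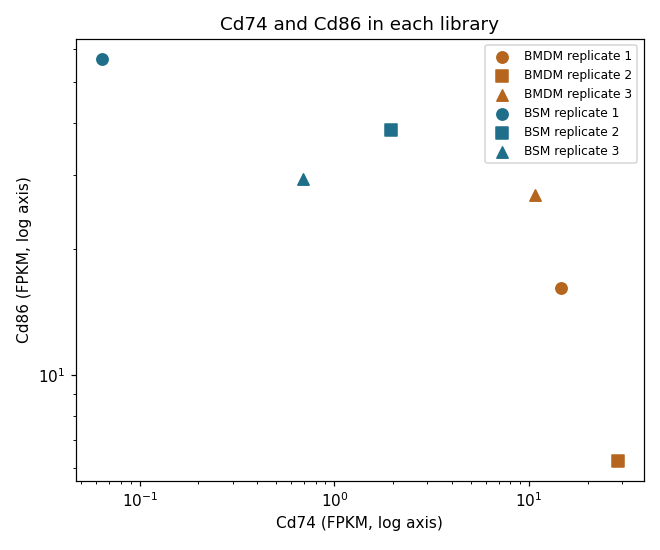
FPKM of Cd86 against FPKM of Cd74 in each of the 6 libraries, both on log axes. BMDM libraries lie at 10.8 to 28.5 FPKM of Cd74 and 6.24 to 26.8 of Cd86, and BSM libraries at 0.0641 to 1.95 of Cd74 and 29.4 to 56.7 of Cd86.

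Cd86 over Cd74 was 1.10, 0.219 and 2.49 in BMDM and 885, 19.7 and 42.8 in BSM. The lowest BSM ratio was therefore above the highest BMDM ratio. Within BMDM the library with the most Cd74, replicate 2, had the least Cd86, and within BSM the library with the least Cd74, replicate 1, had the most Cd86. BSM replicate 2, however, had more of both genes than BSM replicate 3. The ratio of 885 rests on Cd74 at 0.0641 FPKM, in the library with the lowest RNA integrity.

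The ALEXA-Seq table, on the log2(value + 1) scale, gave calls for 6 members. Of its 6364 highest entries 37.1% were called higher in BMDM and 10.9% higher in BSM. H2-Aa (5.32, SE 0.86), H2-Ab1 (4.33, SE 0.88), H2-Eb1 (4.13, SE 0.71) and Cd74 (4.74, SE 1.00) were called higher in BMDM, with limma adjusted p from 0.00269 to 0.00845. Cd86 (-1.69, SE 0.58, limma adjusted p = 0.0472) and Cd80 were called higher in BSM. H2-DMa (1.298, limma adjusted p = 0.0741), H2-DMb1 (1.22, 0.233) and H2-DMb2 (0.31, 0.628) did not pass. H2-Eb1 lost its call under quantile normalization of these values (limma adjusted p = 0.0597). Cd86 lost its call with the pseudocount of 0.1, with no minimum (limma adjusted p = 0.119) and without BMDM replicate 1 or 2 or BSM replicate 1 or 2. Fold changes on the ALEXA-Seq and FPKM scales cannot be set side by side by size, since 1 was added to larger values here.

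Without any minimum on the level, 7 of the 10 members had FPKM ranges that did not overlap between the groups, 6 with BMDM above (H2-Aa, H2-Ab1, H2-Eb1, Cd74, H2-DMa, Ciita) and 1 with BSM above (Cd86). Of the 21167 genes above 0 in any library, 30.0% did not overlap with BMDM above and 7.32% with BSM above. Such ranges by necessity also do not overlap between the groups within the male libraries (replicate 1 of each group) or within the female libraries. This adds no separate check of sex.

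In BMDM the members ranked, by mean FPKM, as Cd74 (18.0), Cd86 (16.4), H2-DMa (11.1), H2-Ab1 (7.86), H2-Aa (7.60), H2-DMb1 (3.11), H2-Eb1 (1.44), H2-DMb2 (1.13), Cd80 (0.409) and Ciita (0.281). Ranges of neighbours overlapped except between H2-Aa and H2-DMb1 and between H2-DMb1 and H2-Eb1. In BSM Cd86 came first at 41.5 with no overlap with the next, H2-DMa at 4.83, and every later pair of neighbours overlapped (H2-DMb1, Cd74, Cd80, H2-DMb2, H2-Ab1, H2-Aa, Ciita, H2-Eb1). Among the 21167 genes above 0, 200 had a higher BSM mean than Cd86 and 1205 had a higher BMDM mean. For Cd74 these numbers were 6464 in BSM and 1079 in BMDM.

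Markers of other cells that express class II were examined beside these values. The 9 conventional dendritic cell markers summed to 12.4, 9.67 and 17.3 FPKM in BMDM and 0.975 to 1.21 in BSM. Cd209a, Dpp4, Clec9a and Flt3 reached 1 FPKM in a BMDM library, and Ccr7 (at most 0.010), Xcr1, Zbtb46, Itgax and Batf3 did not. Zbtb46 and Itgax had higher means in BSM (0.468 and 0.317 FPKM) than in BMDM (0.243 and 0.188), with overlapping ranges. Batf3 was also higher in BSM (mean 0.145 against 0.0178 FPKM), without overlap. Cd209a was 6.29, 2.39 and 7.50 FPKM in BMDM replicates 1, 2 and 3 and Flt3 was 0.686, 1.90 and 1.80, so the order of the libraries differed between these markers. The 8 B cell markers summed to 0.761, 3.26 and 1.58 FPKM in BMDM and 0.724 to 1.06 in BSM. Cd79a alone reached 1 FPKM, at 2.22 in BMDM replicate 2, while Ms4a1 was at most 0.157.

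The 7 granulocyte markers summed to 50.8, 388 and 90.3 FPKM in BMDM and 0 to 0.0714 in BSM, so that BMDM replicate 2, the library with the highest class II values and lowest Cd86, also had the most Mpo (181 FPKM) and Ngp (77.1 FPKM). Among the BSM libraries the 8 markers of brain border macrophages, which are known for class II expression, summed to 1.13, 5.79 and 3.59 FPKM in replicates 1, 2 and 3, against 2.54 to 3.77 in BMDM. Their order followed that of Cd74 in BSM (0.0641, 1.95 and 0.686), and Lyve1 was listed at 0, 1.87 and 0.565. H2-DMa and H2-DMb1 had the same order in BSM, and replicate 1, the lowest in each, had the lowest RNA integrity. The classical chains H2-Aa, H2-Ab1 and H2-Eb1 did not follow this order, with replicate 3 highest in BSM (0.401, 0.785 and 0.0631 FPKM). The BSM gate took CD45low cells. Border macrophages are known for higher CD45, and their share in BSM was not measured. None of the 7 T cell markers reached 1 FPKM. Of the 6 plasmacytoid dendritic cell markers only Siglech did, at 84.4 to 89.5 FPKM in BSM, and it is also a microglia gene. The part of any of these cells in the class II values was not tested.

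The other genes of the pathway were followed as a list of 48 genes by FPKM, of which 31 were tested. Among these 4 were called higher in BMDM, 9 higher in BSM and 18 did not pass, with a median log2 fold change of -0.32 against 0.81 over all tested genes. With the libraries scaled to the same sum 2 were called higher in BMDM and 20 higher in BSM. Over all tested genes 45.3% were called higher in BMDM and 9.22% higher in BSM as deposited. With the same sum these shares were 15.2% and 24.9%. The list was written with earlier results of these data known.

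Antigen and invariant chain processing held 8 genes, all tested, with 1 called higher in BMDM and 4 in BSM. Ifi30, the lysosomal thiol reductase, was 32.1 ± 1.26 FPKM in BMDM and 4.24 ± 0.737 in BSM (SD, n = 3 each), with a log2 fold change of 2.67 (SE 0.22, limma adjusted p = 0.000063). Ctss, the protease that removes the last part of the invariant chain, was 226 ± 36.6 and 596 ± 192 FPKM (-1.35, SE 0.29, limma adjusted p = 0.00636). Ctsl (-3.37), Lgmn (-5.09) and Ctsd (-3.67), further lysosomal proteases, were also called higher in BSM. Ctsb (0.26), the intramembrane protease gene Sppl2a (0.21) and the lysosomal glycoprotein gene Cd68 (-0.38) did not pass as deposited, and with the same sum all 3 were called higher in BSM (limma adjusted p = 0.0119, 0.0122 and 0.0272). Ctss, Ctsl, Lgmn and Ctsd were thus called in the direction opposite to Cd74, under each of the 3 scalings shown for the members, and Ifi30 in the direction of Cd74.

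Of the 9 class II transcription genes listed by FPKM, 6 were tested and 1 was called. Creb1, whose product binds the X2 box, was called higher in BMDM as deposited (0.77, limma adjusted p = 0.0185) but was -0.53 under the same sum and did not pass there. The Y box factors Nfya (0.16), Nfyb (0.66) and Nfyc (0.71), the X box factor Rfx5 (0.88) and Spi1 (0.49) did not pass as deposited. The Rfx5 value rests on BMDM replicate 1 (9.68 FPKM, against 1.60 and 1.94 in replicates 2 and 3 and 0.287 to 2.35 in BSM), and the ALEXA-Seq difference was 0.08 on the log2 scale. Nfya was called higher in BSM with the same sum (-0.99, limma adjusted p = 0.0188). Rfxap, Rfxank and Irf1 stayed below the minimum.

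Class II turnover and surface partners held 8 genes, 6 of them tested. The tetraspanins Cd9 (-2.86) and Cd81 (-5.17) were called higher in BSM. March1, a ubiquitin ligase that removes class II and Cd86 from the surface, was 41.2 ± 4.70 FPKM in BMDM and 30.6 ± 6.98 in BSM (SD, n = 3 each) and did not pass (0.44, limma adjusted p = 0.167). With the same sum March1 turned to -0.85 and was called higher in BSM (limma adjusted p = 0.0331). The tetraspanins Cd63, Cd53 and Cd37 did not pass as deposited, but were called higher in BSM under another scaling, Cd53 with the same sum (limma adjusted p = 0.0133), Cd63 under quantile normalization (0.0145) and Cd37 under both (0.0344 under quantile normalization, 0.0195 with the same sum).

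Of 10 other costimulation genes 3 were tested. Cd48 (2.71, limma adjusted p = 0.00104) was called higher in BMDM and the adhesion ligand gene Icam1 (-0.81, limma adjusted p = 0.0409) higher in BSM, and Icosl (-0.74, limma adjusted p = 0.0585) did not pass as deposited. Icosl was called higher in BSM under quantile normalization (-1.54, limma adjusted p = 0.00327), with the same sum (-1.76, 0.00336) and by ALEXA-Seq (-0.95, 0.0363). Cd40, the receptor for T cell help, was below the minimum of 3 FPKM at 0.817, 1.48 and 1.10 in BMDM and 0, 0 and 0.015 in BSM, and was called higher in BMDM with the minimum of 1 FPKM. Cd40 and Cd86 thus lay on opposite sides.

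Among 9 genes of cytokine regulation 8 were tested. Jak2 (1.72, limma adjusted p = 0.00327) was called higher in BMDM as deposited but not with the same sum (0.61, limma adjusted p = 0.183), and the TGF-beta receptors Tgfbr1 (-4.63) and Tgfbr2 (-2.12) higher in BSM. Of the receptors for interferon gamma, which induces Ciita, Ifngr1 (-0.32) and Ifngr2 (0.74) did not pass as deposited, nor did Jak1, Il10ra and Il4ra. Ifngr1 was called higher in BSM under quantile normalization (-1.07, limma adjusted p = 0.00958) and the same sum (-1.61, 0.00164), as was Il10ra (0.00762 and 0.0415), Il4ra under quantile normalization (0.0196) and Jak1 under the same sum (-0.77, 0.0441).

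H2-Ob, the beta chain of the H2-DM inhibitor H2-O, was measured in the direction opposite to the classical chains. It was listed at 0.071, 0.023 and 0.197 FPKM in BMDM and 2.24, 2.68 and 2.15 FPKM in BSM. It fell short of the minimum of 3 FPKM, and with the minimum of 1 FPKM its log2 fold change was -1.61 (SE 0.21, limma adjusted p = 0.00071). By ALEXA-Seq it was -4.24 (SE 0.54, limma adjusted p = 0.000912). H2-Oa, the alpha chain with which it pairs, was measured at 0.0879, 0.0845 and 0.0397 FPKM in BMDM and 0.215, 0.277 and 0.261 FPKM in BSM. It entered the fit only with no minimum, where its log2 fold change was -0.22 (SE 0.04, limma adjusted p = 0.0186), and by ALEXA-Seq with no minimum it was -1.19 and did not pass (limma adjusted p = 0.203).

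**Figure D5:**
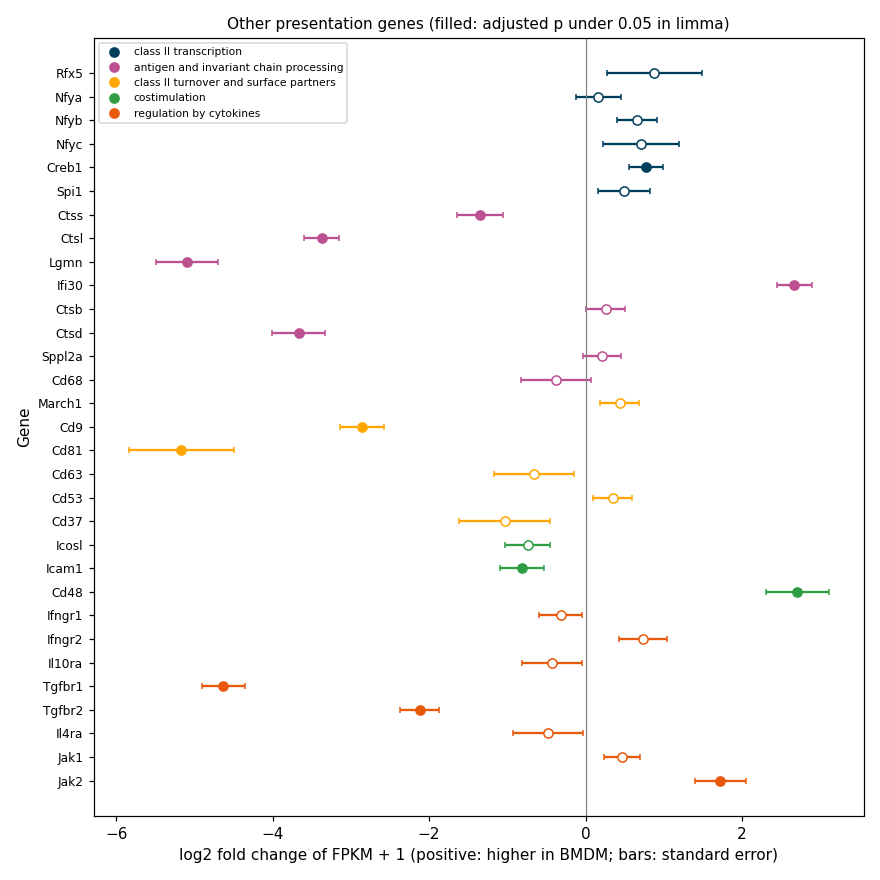
Log2 fold change of FPKM + 1 (positive, higher in BMDM) with its standard error for the 31 tested genes of the presentation list, coloured by group and filled where the limma adjusted p was under 0.05. The called genes range from -5.17 for Cd81 to 2.71 for Cd48.

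The tested genes whose log2(FPKM + 1) followed that of Cd74 most closely over the 6 libraries were 2310016E02Rik, Psmb10 (an immunoproteasome subunit), Psmc1 (a proteasome ATPase), Trappc3 and Tmem134, with Pearson r from 0.995 to 0.998. Among the members r with Cd74 was 0.987 for H2-Ab1, 0.972 for H2-Aa, 0.965 for Ciita, 0.929 for H2-Eb1, 0.859 for H2-DMa, 0.804 for H2-DMb1, 0.577 for H2-DMb2, -0.692 for Cd80 and -0.881 for Cd86. Ranked from the highest r against the tested genes, H2-Ab1 was at 55, H2-Aa at 323, Ciita at 519, H2-Eb1 at 1598 and H2-DMa at 2593. Many genes outside the members thus followed Cd74 more closely than these members did. These values are a description, since the 6 libraries fall into the sorted groups and share their totals.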

How the data were processed

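The authors sequenced amplified RNA of sorted cells and processed the reads with CASAVA 1.7.0, TopHat 1.3.1, Bowtie 0.12.7 and Cufflinks 1.0.3 on mm9, as given in the submitters' processing notes. The FPKM per gene are the deposited Cufflinks values of each library. The authors' ALEXA-Seq table holds a second signal per gene, deposited without a named unit and treated here as coverage-like. The study gives the mapped reads of each library, but neither table gives counts per gene. The reads behind each value are therefore unknown, and no counting interval was made. Starts were counted from 0 and are given from 1.

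Genes that reached 3 FPKM in any library (6364) and as many ALEXA-Seq entries with the highest values were tested on log2(value + 1) with limma 3.58.1 in R 4.3.3, with a mean-variance trend and Benjamini-Hochberg adjustment over all of them, between the groups with no block. The fit was tested on simulated data. The alternatives were another pseudocount (0.1), a minimum of 1 or none, 3 scalings, no trend, library weights, the replicate number as a block and each library left out. ALEXA-Seq upper quartile and same sum scaling and leaving out BMDM replicate 2 with BSM replicate 1 were added after seeing the data. Exact permutation tests were two-sided.

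The members and lists were chosen with earlier results of these data known. A few list genes are not reported here and were left out of the lists and sums. Named were all members, the presentation genes that reached 3 FPKM in a library, markers at 1 or more, and the 5 genes most like Cd74. H2-Ob, H2-Oa, H2-Ea, Cd40, Rfxap, Rfxank, Irf1 and the markers below 1 were named after their values were seen. Genome positions are those of the files, overlaps and transcript copies those of GENCODE M21, and promoters those of RefSeq.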

Additional observations from a re-analysis of the deposited data

How the results depend on the processing

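H2-Aa, H2-Ab1 and Cd74 kept their direction and call under all 17 alternatives each, with log2 fold changes by FPKM of 2.23 to 4.90, 1.75 to 4.07 and 2.52 to 4.69, the highest with the pseudocount of 0.1, where H2-Aa was above Cd74. H2-DMa passed with library weights, the replicate block and without BSM replicate 2, and reversed under the same sum (-0.0126), and H2-DMb1 under quantile normalization (-0.11) and the same sum (-0.0287). Cd86 kept its direction under 17 alternatives and lost its call under 7, with adjusted p from 0.0064 to 0.131, among them the pseudocount of 0.1 (0.0506), no minimum (0.131) and leaving out BMDM replicate 2 with BSM replicate 1 (0.0516). Called members numbered 3 to 5 by FPKM and 4 to 6 by ALEXA-Seq. Called presentation genes numbered 13 as deposited, 22 with the same sum (2 higher in BMDM, 20 in BSM), 25 with library weights (11 and 14) and 23 without BMDM replicate 2 and BSM replicate 1 (8 and 15), when calls over all 6364 genes were 3470, 2553, 4703 and 4378. Each library left out gave 11 to 18. Deviations of same-numbered libraries correlated at -0.019, -0.0084 and 0.134, and only the libraries numbered 3 correlated best with each other, so the numbers were not taken to pair the libraries. With the replicate block 5 members were called by FPKM (H2-DMa added, adjusted p = 0.0123) and 6 by ALEXA-Seq (H2-DMa added, Cd86 lost), 12 presentation genes, and 3471 genes in all against 3470. Genes near 0 FPKM rest on an unknown number of reads, and a value listed at 0 may be a failed estimate.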
